A study of Mus musculus with 14 samples.

Results

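The 4 Argonaute genes *Ago1*, *Ago2*, *Ago3* and *Ago4*, the 3 GW182 genes *Tnrc6a*, *Tnrc6b* and *Tnrc6c* and the RNA helicase gene *Mov10* were followed across RNA-seq libraries of full-grown mouse oocytes that lacked AGO2 cleavage, AGO2 or DICER. They were chosen by name as the genes of the RNA-induced silencing complex (RISC) and its closest effectors, and all 8 were found among 20337 genes with a symbol. Their 11 RefSeq transcripts were among 26495 in the tables, and the transcript with the highest mean count stood for each gene. All 8 passed the filter on low counts in every comparison.

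The data were 14 libraries, each made from amplified cDNA of 20 germinal vesicle-intact oocytes pooled from 3 females (3 or 4 in the study's methods) that were 4 to 6 weeks old and had been primed with eCG (5 IU, 48 h). *Ago2* fl/fl oocytes (n = 3) carried floxed *Ago2* without Cre and were the controls of 2 mutants made with Cre recombinase under the *Zp3* promoter, which acts in growing oocytes and leaves the follicle cells unrecombined. In *Ago2* ADH oocytes (n = 3), derived from *Ago2* fl/ADH females with Cre, the floxed allele was removed and 1 catalytically inactive knock-in allele remained, whereas in *Ago2* null oocytes (n = 2 here and in the labels, 3 in the study's methods) no functional allele remained. *Dicer* WT (n = 3) and *Dicer* KO (n = 3) oocytes came from wild-type females and from females with an oocyte-specific deletion of *Dicer*. The mice were of a mixed, mostly C57BL6 background. The Cre driver of the *Dicer* deletion and the *Dicer* alleles of the WT females are not given in the sources used here.

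Argonaute proteins hold a small RNA and use it to find a complementary transcript. AGO2 can cut a fully matched target, and its loss in mouse oocytes is known to remove the activity of endogenous small interfering RNAs, the products of DICER that dominate in this cell. TNRC6 proteins dock on any Argonaute and recruit the CCR4-NOT and PAN2-PAN3 deadenylases, which is the route by which microRNAs shorten and destabilise their targets. MOV10 is a helicase that associates with RISC and is best known for restraining retrotransposons.

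Not all of the Argonaute genes encode the catalytic triad, which in AGO2 is aspartate, aspartate, histidine. The ADH allele replaces the first of these with alanine. The windows below set *Ago2* beside the other genes, of which *Ago1* and *Ago4* encode other residues at part of these codons. Each is 27 bases of the GENCODE coding sequence on GRCm38, all from genes on the minus strand, with the triad codon in capitals, and they are reference sequences that were not read from these libraries.
*Ago2*, first codon, exon 14, chr15:73116339-73116365: ttcctgggagccGATgtcacccaccca
*Ago2*, second codon, exon 15, chr15:73113723-73113749: atcttctaccgcGATggcgtctccgag
*Ago2*, last codon, exon 18, chr15:73107203-73107229: gcttactatgctCACctggtggccttc
*Ago3*, second codon, exon 15, chr4:126350870-126350896: atcttctatcggGATggtgtttcagaa
*Ago3*, last codon, exon 18, chr4:126346669-126346695: gcatattacgctCACctggtggcattc
*Ago1*, second codon, exon 15, chr4:126441904-126441930: atcttctaccgcGACggcgtccccgag
*Ago1*, last codon, exon 18, chr4:126439880-126439906: gcctactatgctCGCttggtggctttc
*Ago4*, second codon, exon 14, chr4:126507026-126507052: atctactaccgcGGAggggtatccgag
*Ago4*, last codon, exon 17, chr4:126496787-126496813: gcatattatgccCGGcttgtggcattc

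The first codon was GAT, aspartate, in all 4 genes. *Ago3* carried the same 3 residues as *Ago2* (GAT and CAC in the windows above), *Ago1* had arginine (CGC) at the last place, and *Ago4* had glycine (GGA) and arginine (CGG) at the last 2 places. The triad alone does not make a slicer, since the study names AGO2 as the only mammalian Argonaute with endonucleolytic activity. The coding sequences of the 4 genes were 72.6% to 76.0% identical in pairs. Of the 28 pairs among the 8 genes, 4 pairs, all between Argonaute genes, shared a run of 36 bases, the shorter of the stated read lengths: *Ago1* with *Ago2*, *Ago3* and *Ago4*, and *Ago3* with *Ago4*. *Ago1* and *Ago3*, neighbours on chromosome 4, shared the most, at 135 start positions, and a read that lies within such a run cannot be assigned to 1 gene. A 219-base stretch of *Ago2* (1.59% of its transcript) lies over *Chrac1* on the opposite strand, and counting took no account of strand.

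The libraries held 29380403 to 58285057 counts on transcripts. Replicates differed by more than counting noise, and p-values measure the spread between these pools of oocytes. Levels are CPM, counts divided by the library total and scaled by TMM over all 14 libraries. Summed over 12 oocyte genes such as *Gdf9* and *Zp2*, the level was 13582 to 21102 CPM, and leukocyte and blood genes (4 of 6 found) summed to at most 0.301 CPM. All 12 cumulus and granulosa genes were found, with *Foxl2* and *Amh* at 0.143 and 0.278 CPM or less and most of the sum in *Cyp19a1* and *Nr5a2*. They summed to 77.4 to 83.9 CPM in *Ago2* fl/fl, 62.2 to 69.2 in *Ago2* ADH, 57.4 to 59.97 in *Ago2* null, 96.1 to 104 in *Dicer* WT and 80.8 to 84.2 in *Dicer* KO, lower in each mutant as *Ago2* and *Ago3* were, and their part in the results was not tested. Alignments that were not unique, which are outside the counts, also had a larger share in the mutants. The share was taken of transcript counts, reads without a feature and these alignments together. It was 57.0% to 58.3% in both *Ago2* mutants against 33.2% to 34.6% in *Ago2* fl/fl, and 44.4% to 49.5% in *Dicer* KO against 25.6% to 31.5% in *Dicer* WT. Lane and genotype cannot be told apart in the *Ago2* libraries, since each genotype had a lane of its own. In RNA from pooled cells, fewer intact oocytes and less RNA per oocyte cannot be told apart. Fold changes come from edgeR's quasi-likelihood test on all transcripts, with Benjamini-Hochberg adjustment, and a change was called at a false discovery rate (FDR) of 1%. The *Ago2* ADH and *Ago2* null comparisons share the fl/fl libraries and are not independent.

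The effectors were not equally abundant, and their order rested in part on the length they were divided by. Per kilobase of the whole GENCODE transcript, *Tnrc6c* was the highest in *Ago2* fl/fl oocytes, at 14.7 ± 0.326 CPM per kb (SD, n = 3), followed by *Tnrc6b* at 8.54 ± 0.708 and *Ago3* at 7.36 ± 0.262. *Tnrc6a* stood at 2.30 ± 0.214, *Ago2* at 1.78 ± 0.0555 and *Mov10* at 1.65 ± 0.176, and the libraries of the last pair overlapped. *Ago1* (0.159 ± 0.0485) and *Ago4* (0.142 ± 0.0247) were the lowest and overlapped each other. The first 3 places were held by the same genes in every group, with *Tnrc6b* and *Ago3* overlapping in *Dicer* WT, where they stood at 10.9 ± 1.10 and 10.4 ± 1.03 CPM per kb. *Mov10* lay below *Ago2* or overlapped it in both control groups and above it in all 3 mutant groups, and *Ago4* lay above *Ago1* in *Dicer* WT (0.331 and 0.148 CPM per kb) and below it in *Dicer* KO (0.163 and 0.270), without overlap. Other lengths, tried after these values were seen, turned part of this order. Per kilobase of coding sequence *Ago3* came first in *Ago2* fl/fl, at 44.5 ± 1.59 CPM per kb, ahead of *Tnrc6b* (27.2 ± 2.26) and *Tnrc6c* (22.5 ± 0.499), and without division by length *Tnrc6b* came first. On both of these scales *Mov10* stayed below *Ago2* in *Ago2* ADH (3.61 and 5.05 CPM per coding kb) and *Dicer* KO (2.89 and 6.86) and lay above it only in *Ago2* null (3.36 and 2.42).

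**Figure D1:**
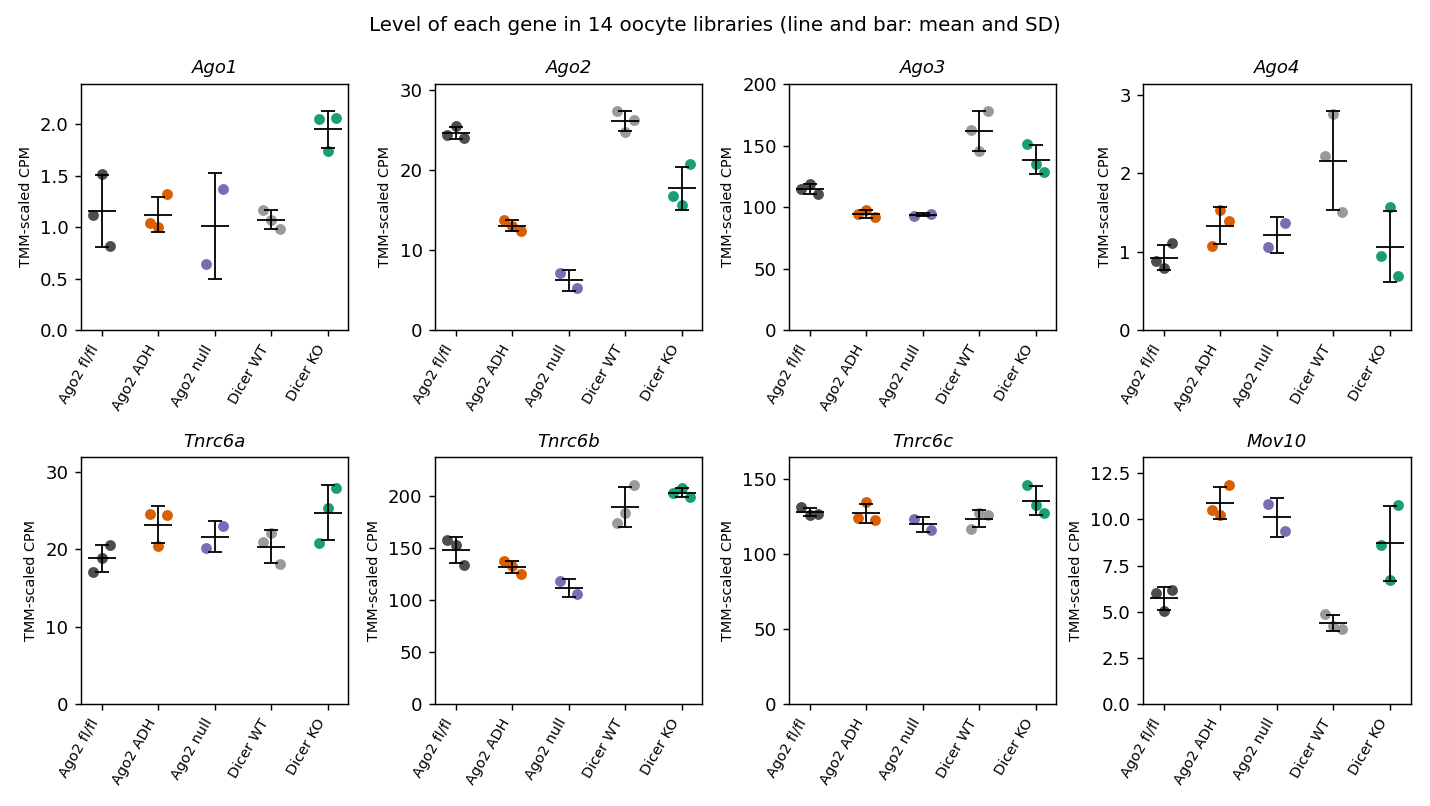
Level of each gene in TMM-scaled CPM (vertical axes, linear, from 0) in each of the 14 oocyte libraries (points), with the mean and SD of each genotype (lines and bars; n = 3, and n = 2 for Ago2 null). Ago2 is lower and Mov10 higher in every mutant library than in every library of its control, whereas Tnrc6a and Ago4 overlap between mutants and controls.

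*Ago2*, the slicer (NM_153178, chr15:73101625-73184947, 19 exons), fell in all 3 mutants. The 3 *Ago2* fl/fl libraries had 24.4, 25.4 and 24.0 CPM, from 1416, 1509 and 1258 counts. The 3 *Ago2* ADH libraries had 13.7, 13.0 and 12.4 CPM and the 2 *Ago2* null libraries 7.17 and 5.30 CPM. The 3 groups did not overlap, and the order fl/fl, ADH, null held in every library. The *Ago2* ADH level was 54.7% of the control (95% confidence interval 48.1% to 62.2%), a log2 fold change of -0.87 ± 0.0879 (SE) with an adjusted p of 1.27e-07 by edgeR. In *Ago2* null oocytes it was 25.9% of the control (21.5% to 31.3%), a log2 fold change of -1.95 ± 0.128 with an adjusted p of 2.21e-09. Compared directly, the *Ago2* ADH level was 208% of the *Ago2* null level (168% to 259%; adjusted p = 0.00163). The counts cover the whole transcript and do not separate the floxed exons or the alleles, so the reads left in *Ago2* null oocytes could not be assigned to any part of the gene.

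*Ago2* was also lower where only *Dicer* was deleted. The 3 *Dicer* WT libraries had 27.3, 24.7 and 26.2 CPM, close to one another, and the 3 *Dicer* KO libraries had 16.8, 15.6 and 20.7 CPM. The highest knockout library was below the lowest control. The *Dicer* KO level was 67.8% of *Dicer* WT (57.4% to 80.1%), a log2 fold change of -0.56 ± 0.115 with an adjusted p of 0.000545 by edgeR. The *Ago2* ADH change less the *Dicer* KO change was -0.36 on the log2 scale (95% confidence interval -0.66 to -0.06), which did not pass the threshold (adjusted p = 0.124).

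*Ago3*, the Argonaute with the AGO2-like triad (NM_153402, chr4:126326994-126431670), was the most abundant Argonaute transcript in all 5 groups and its fitted level was 83.5% to 85.3% of the control in each mutant. The *Ago2* fl/fl libraries had 114, 119 and 111 CPM, the *Ago2* ADH libraries 94.5, 97.8 and 91.5 CPM, and the *Ago2* null libraries 92.8 and 94.7 CPM. All 5 mutant libraries were below all 3 controls. The level was 85.2% of the control in *Ago2* ADH (78.8% to 92.0%; adjusted p = 0.00123) and 83.5% in *Ago2* null (76.2% to 91.5%; adjusted p = 0.00244) by edgeR. Both calls rested on single libraries. Without *Ago2* fl/fl replicate 2 the adjusted p was 0.0149 and 0.0275, and without *Ago2* null replicate 1 the second was 0.0133. Over all alternatives the adjusted p ran from 8.10e-05 to 0.0149 for *Ago2* ADH and from 0.000345 to 0.0275 for *Ago2* null.

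In the *Dicer* libraries *Ago3* was at 162, 146 and 178 CPM in WT and at 152, 135 and 129 CPM in KO, so the groups overlapped. The KO level was 85.3% of WT (76.2% to 95.4%), with an adjusted p of 0.0207 by edgeR that did not pass. It passed without *Dicer* WT replicate 2 (0.00487), without *Dicer* KO replicate 1 (0.00435), without a filter on low counts (0.00449) and with all 5 groups in one fit (0.00882), within a range over alternatives of 0.00435 to 0.109. The *Ago3* changes in *Ago2* ADH and *Dicer* KO oocytes differed by -0.05 on the log2 scale (95% confidence interval -0.26 to 0.15; adjusted p = 0.796).

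*Ago1* and *Ago4*, whose triads are incomplete, had the fewest counts, at 36 to 90 counts for *Ago1* and 24 to 111 for *Ago4*. *Ago1* (NM_153403, chr4:126435012-126468707) had 1.12, 1.52 and 0.819 CPM in *Ago2* fl/fl, 1.04, 1.01 and 1.32 in *Ago2* ADH, and 0.643 and 1.37 in *Ago2* null, with full overlap. In the *Dicer* libraries it had 1.16, 1.07 and 0.977 CPM in WT and 2.05, 1.74 and 2.05 CPM in KO, which did not overlap. The KO level was 182% of WT (116% to 286%), but the adjusted p of 0.0299 by edgeR did not pass.

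*Ago4* (NM_153177, chr4:126489487-126533586) had 0.878, 0.793 and 1.10 CPM in *Ago2* fl/fl, 1.08, 1.54 and 1.39 in *Ago2* ADH, and 1.05 and 1.37 in *Ago2* null. It had 2.22, 2.76 and 1.502 CPM in *Dicer* WT and 0.943, 1.56 and 0.685 in *Dicer* KO. Its groups overlapped in every comparison. The level was 149% of the control in *Ago2* ADH (96.3% to 230%; adjusted p = 0.118) and 48.7% in *Dicer* KO (28.9% to 82.3%; adjusted p = 0.0245) by edgeR. Without *Dicer* KO replicate 2 the second passed (0.00902, with a range over alternatives of 0.00902 to 0.123). The changes in *Ago2* ADH and *Dicer* KO oocytes differed by 1.56 ± 0.470 on the log2 scale, with an adjusted p of 0.0400 that missed the threshold of 1%.

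As a description of what the Argonaute pool was made of, each gene's share of the summed CPM per kb of *Ago1* to *Ago4* was taken in every library. *Ago3* made up 77.9% ± 0.154 (SD, n = 3) in *Ago2* fl/fl, 82.3% ± 0.361 in *Ago2* ADH and 88.6% ± 0.0150 (n = 2) in *Ago2* null, and 81.3% ± 1.89 and 83.7% ± 2.16 in *Dicer* WT and KO. *Ago2* made up 18.9% ± 0.126, 12.8% ± 0.617 and 6.66% ± 1.504 in the *Ago2* groups, and 14.8% ± 0.841 and 12.2% ± 2.30 in *Dicer* WT and KO, whose libraries overlapped at 13.9% to 15.3% and 10.7% to 14.8%. *Ago1* and *Ago4* each stayed below 4% in every library. The summed level was 9.44 ± 0.342 CPM per kb in *Ago2* fl/fl, 7.37 ± 0.212 in *Ago2* ADH and 6.79 ± 0.0948 in *Ago2* null. It was 12.8 ± 0.988 in *Dicer* WT and 10.6 ± 0.670 in *Dicer* KO, so each mutant mean was lower than its control, at 78.0%, 71.9% and 83.0%. These are ratios of mean levels scaled over all 14 libraries, whereas the percentages of single genes come from each comparison's own fit. With *Ago2* set aside, the sum of the other 3 was 7.66 ± 0.287 in *Ago2* fl/fl, 6.42 ± 0.197 in *Ago2* ADH and 6.34 ± 0.191 in *Ago2* null. *Ago1*, *Ago3* and *Ago4* were not called higher in either *Ago2* mutant.

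**Figure D2:**
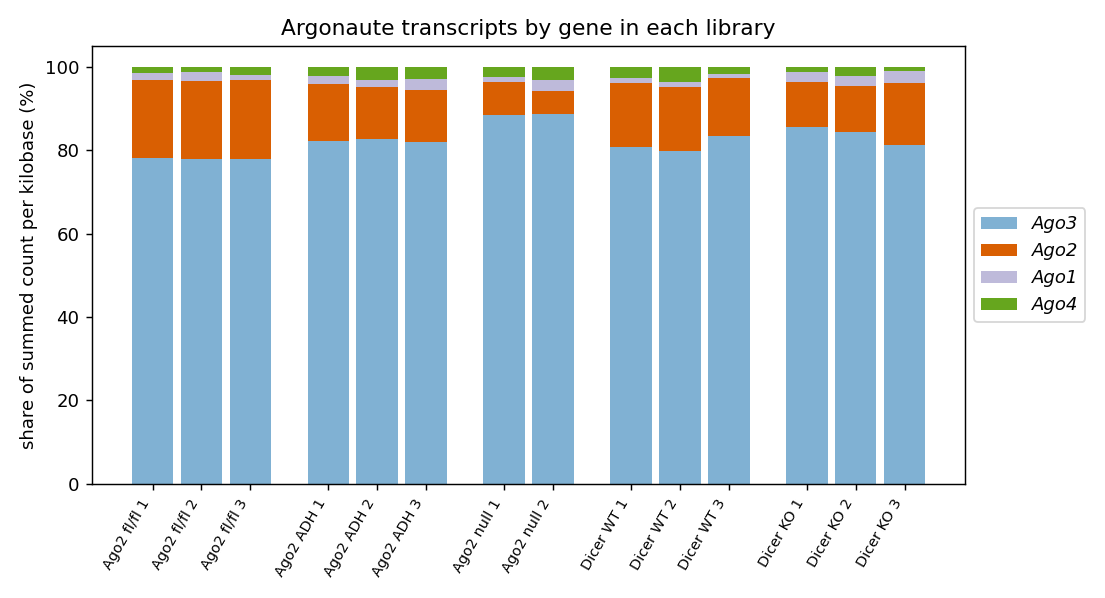
Share of each Argonaute gene in the summed count per kilobase of Ago1 to Ago4, in percent (vertical axis, linear, from 0), with 1 stacked bar for each of the 14 libraries, grouped by genotype. Ago3 is the largest part of every bar, and the mean Ago2 part is 18.9% in Ago2 fl/fl, 12.8% in Ago2 ADH and 6.66% in Ago2 null.

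The 3 GW182 genes, which carry the silencing signal from Argonaute to the deadenylases, did not move together. *Tnrc6c* (NM_198022, chr11:117653703-117763439) was the steadiest of the 8 genes, with 116 to 146 CPM over all 14 libraries and no call in any comparison. Its level was 103% of the control in *Ago2* ADH (95.2% to 111%; adjusted p = 0.567), 95.6% in *Ago2* null (87.5% to 104%; adjusted p = 0.397) and 109% in *Dicer* KO (99.0% to 121%; adjusted p = 0.132) by edgeR, although both *Ago2* null libraries (123 and 116 CPM) were below all 3 controls.

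*Tnrc6b* (NM_177124, chr15:80711313-80941086) fell in *Ago2* null oocytes. Its 3 *Ago2* fl/fl libraries had 157, 152 and 134 CPM, its *Ago2* ADH libraries 137, 133 and 125 CPM, and its *Ago2* null libraries 118 and 106 CPM. The null libraries were below all 6 others, while *Ago2* ADH overlapped the control. The level was 77.3% of the control in *Ago2* null (69.4% to 86.1%; log2 fold change -0.37 ± 0.0738; adjusted p = 0.000520) and 92.0% in *Ago2* ADH (84.4% to 100%; adjusted p = 0.1002) by edgeR. The *Ago2* null call was kept in every alternative that used all libraries, and with each *Ago2* fl/fl library left out. Compared directly, *Ago2* ADH was at 118% of *Ago2* null (106% to 130%), and the adjusted p of 0.254 by edgeR did not pass. In *Dicer* KO it was at 199 to 207 CPM against 174 to 211 in WT, 107% of the control (96.6% to 118%; adjusted p = 0.278).

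*Tnrc6a* (NM_144925, chr7:123031101-123195296) had 17.0, 18.9 and 20.6 CPM in *Ago2* fl/fl and 24.6, 20.4 and 24.5 CPM in *Ago2* ADH, so 1 mutant library lay within the range of the controls. The level was 127% of the control (110% to 147%), with an adjusted p of 0.00726 by edgeR. This call was not steady. Without *Ago2* fl/fl replicate 1 or 2 or *Ago2* ADH replicate 1 or 3 the adjusted p was 0.0476, 0.0209, 0.0463 and 0.0374, and with all 5 groups in one fit it was 0.0320, within a range over alternatives of 0.000930 to 0.0476. In *Ago2* null (20.2 and 23.1 CPM) and *Dicer* KO (20.9, 25.4 and 28.0 CPM, against 20.9, 22.1 and 18.0 in WT) the level was 117% and 121% of the control, and neither passed (adjusted p = 0.0817 and 0.0618).

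*Mov10* (NM_008619, chr3:104794828-104818619), the helicase, was the one gene of the 8 called higher in all 3 mutants. It had 5.99, 5.03 and 6.15 CPM in *Ago2* fl/fl, 10.5, 10.3 and 11.9 in *Ago2* ADH, and 10.9 and 9.37 in *Ago2* null. It had 4.89, 4.23 and 4.08 CPM in *Dicer* WT and 8.62, 6.72 and 10.8 in *Dicer* KO. No mutant library overlapped its controls. The level was 196% of the control in *Ago2* ADH (164% to 236%; log2 fold change 0.97 ± 0.125; adjusted p = 2.85e-06) and 181% in *Ago2* null (147% to 223%; 0.85 ± 0.142; adjusted p = 0.000102) by edgeR. In *Dicer* KO it was 198% (150% to 262%; 0.99 ± 0.191; adjusted p = 0.000333). The change in *Ago2* ADH less that in *Dicer* KO was -0.06 on the log2 scale (95% confidence interval -0.54 to 0.41; adjusted p = 0.901), and that between *Ago2* ADH and *Ago2* null was 0.10 (-0.18 to 0.38; adjusted p = 0.861). The counts of the 3 *Mov10* transcripts, which share 1 locus, differed by at most 2 in any library and are not separate support. The read support was modest, at 170 to 608 counts per library. Of all transcripts, 20.5% were called higher in *Ago2* ADH, 18.1% in *Ago2* null and 16.7% in *Dicer* KO, each comparison taken alone. The shares of all transcripts called higher in all 3, or with no overlap of libraries, were not counted.

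**Figure D3:**
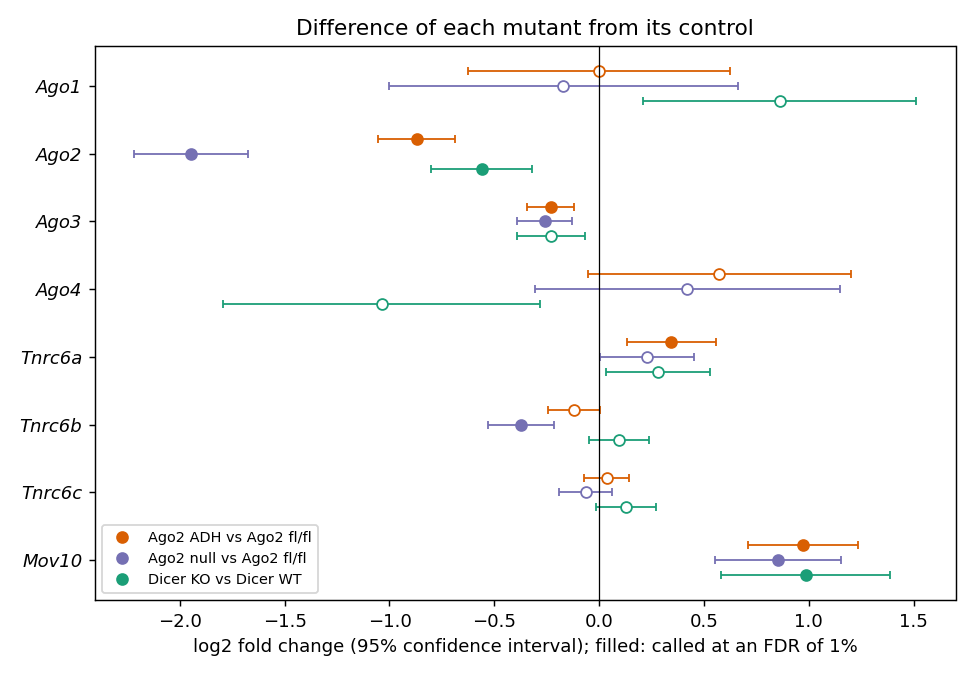
Log2 fold change of each gene (horizontal axis) in Ago2 ADH and Ago2 null against Ago2 fl/fl and in Dicer KO against Dicer WT, with 95% confidence intervals (bars) and filled points where the change was called at an FDR of 1%. Ago2 lies to the left of 0 and Mov10 to the right of 0, at 0.85 to 0.99, in all 3 comparisons, while the intervals of Ago1 and Ago4 are the widest.

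Counted over the 8 genes, 4 were called in *Ago2* ADH (2 higher, 2 lower), where 40.7% of all tested transcripts were called (20.5% higher, 20.1% lower). In *Ago2* null, 4 were called (1 higher, 3 lower) beside 37.2% of all transcripts (18.1% higher, 19.1% lower), and in *Dicer* KO 2 were called (1 higher, 1 lower) beside 34.5% (16.7% higher, 17.8% lower). These shares are near those of all transcripts, and the median log2 fold changes of the 8 genes were 0.02, -0.12 and 0.11, against 0.01, 0.00 and -0.00 over all transcripts. Between *Ago2* ADH and *Ago2* null only *Ago2* was called, where 0.119% of all transcripts were (0.0673% higher, 0.0518% lower in *Ago2* ADH). When the change in *Ago2* ADH was tested against that in *Dicer* KO, none of the 8 was called by edgeR or by DESeq2, beside 3.55% of all transcripts (1.2% higher and 2.35% lower in *Ago2* ADH), and 4 had an unadjusted p under 0.05 by edgeR.

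The call of *Ago2* between the mutants depended on single libraries, although the size of the difference moved less. Without *Ago2* ADH replicate 1 its adjusted p was 0.0201 (log2 difference 1.02, against 1.06 with all libraries) and without *Ago2* null replicate 2 it was 0.103 (0.86), the latter leaving 1 null library whose spread is assumed to be that of the other group. Over all alternatives it ran from 1.54e-09 to 0.103. The calls of *Ago2* and *Mov10* against controls were kept in every alternative and with every library left out.

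The wider machinery was taken from 6 lists with 47 genes, of which 46 were tested. Of these, 12 were called higher and 9 lower in *Ago2* ADH, 12 and 10 in *Ago2* null, and 9 and 10 in *Dicer* KO, which is 45.7%, 47.8% and 41.3% beside the 40.7%, 37.2% and 34.5% of all transcripts. Of the deadenylation and repression factors bound by TNRC6, the longest list, 8 of 14 were lower and 2 higher in *Ago2* ADH, 9 and 2 in *Ago2* null, and 6 and 1 in *Dicer* KO. Among all transcripts tested, 20.1%, 19.1% and 17.8% were called lower and 20.5%, 18.1% and 16.7% higher in the same 3 comparisons. The median log2 fold changes of the list of factors bound by TNRC6 were -0.21, -0.29 and -0.17. *Cnot1*, the scaffold of the CCR4-NOT complex, fell by 0.50, 0.70 and 0.59 on the log2 scale in the 3 comparisons, and the deadenylase gene *Cnot6* fell by 0.50, 0.58 and 0.44. *Pabpc1*, which encodes the cytoplasmic poly(A) binding protein, rose by 1.35, 1.10 and 0.56. In all, 7 genes of this list were called in the same direction in all 3 comparisons, among them *Cnot1*, *Cnot6* and *Pabpc1*. The share of all transcripts called in this way was not counted, so whether 7 of 14 is many is not known.

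The chaperones that open Argonaute for loading had 4, 3 and 2 of 9 genes called higher and none lower in the 3 comparisons. The called shares were 44.4%, 33.3% and 22.2%. Of all transcripts, 20.5%, 18.1% and 16.7% were called higher and 20.1%, 19.1% and 17.8% lower. *Hsp90ab1*, a cytosolic HSP90, rose by 1.22, 1.16 and 1.59 on the log2 scale, and *Ptges3*, the HSP90 co-chaperone p23, by 0.65, 0.67 and 0.37. *Tsnax*, which encodes the translin partner in the nuclease that clears passenger strands, rose by 1.71, 1.84 and 1.67, whereas its partner *Tsn* stood at 0.21, 0.19 and -0.15 and was not called. Of 13 Argonaute partners and regulators, 3, 4 and 4 were higher and 1, 1 and 2 lower. In either direction that is 30.8%, 38.5% and 46.2%, beside 40.7%, 37.2% and 34.5% of all transcripts. *Wtip* rose by 1.39, 1.26 and 1.28, the ubiquitin ligase gene *Trim71* by 1.01, 0.89 and 1.06, and the RNA-binding protein gene *Fmr1* by 0.92, 0.79 and 0.60. None of these 46 genes was called between *Ago2* ADH and *Ago2* null by edgeR.

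Of the 6 genes for dicing and pre-miRNA processing, 1 was higher and none lower in *Ago2* ADH and in *Ago2* null. In *Dicer* KO, 1 was higher and 2 lower. The share called in either direction was 16.7% in each *Ago2* mutant, below the 40.7% and 37.2% of all transcripts. In *Dicer* KO it was above the 34.5% of all transcripts. *Dicer1* was the gene that rose in each comparison, by 0.67, 0.59 and 1.26 on the log2 scale. Its count covers the whole transcript, deleted part included, and so is no check of the deletion. Of the 3 PIWI genes, 2 were tested, and *Piwil2* was higher in both *Ago2* mutants (2.28 and 2.19 on the log2 scale; 0.57 in *Dicer* KO, adjusted p = 0.0865, edgeR). Of all transcripts, 20.5% were called higher in *Ago2* ADH and 18.1% in *Ago2* null. Over the lists, 4 of 46 genes tested (8.70%, beside 3.55% of all transcripts) were called for a change in *Ago2* ADH unlike that in *Dicer* KO. *Dicer1* (-0.63; adjusted p = 4.51e-06) and *Hsp90ab1* (-0.43; adjusted p = 0.000583) rose less in *Ago2* ADH, and the RNA helicase gene *Ddx6* (0.87; adjusted p = 0.000763) and *Piwil2* (1.66; adjusted p = 0.00291) were higher there by edgeR. *Ddx6* and *Piwil2* were named after their values were seen.

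**Figure D4:**
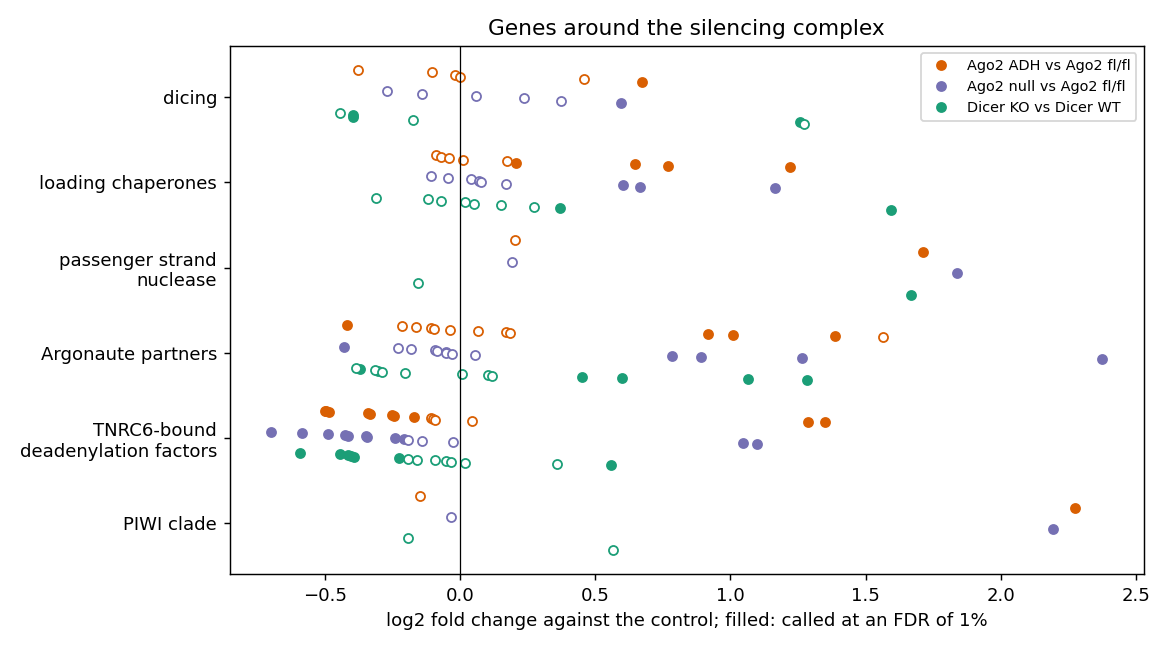
Log2 fold change (horizontal axis) of each tested gene of the 6 pathway lists (rows), 1 point per gene and comparison, in Ago2 ADH and Ago2 null against Ago2 fl/fl and in Dicer KO against Dicer WT (colours), with filled points where the change was called at an FDR of 1%. The filled points of the chaperones and the passenger strand nuclease all lie to the right of 0, and most of those of the TNRC6-bound deadenylation factors lie to the left.

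The genes whose pattern was most like that of *Ago2* were found by the Pearson correlation of log2 CPM, taken relative to the controls of the same series, among 10233 genes over 14 libraries that share groups and lanes. They were *Atp2b3* (r = 0.965), a plasma membrane calcium pump gene, *Maco1* (r = 0.962) and *Zmat4* (r = 0.958). *Maco1* had 101 CPM in *Ago2* fl/fl, 73.1 in *Ago2* ADH, 61.1 in *Ago2* null, 104 in *Dicer* WT and 85.1 in *Dicer* KO, the same order of groups as *Ago2* with a smaller range. For *Ago3* they included *Supt6* (r = 0.953), a transcription elongation factor gene, and *Camsap2* (r = 0.943). *Supt6* had 136, 107, 103, 138 and 116 CPM in the 5 groups.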

How the data were processed

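The authors made amplified cDNA from oocyte lysates, aligned paired-end reads to mm10 with TopHat2 (2.0.7 in the submitters' processing notes), with at most 100 alignments kept for a read, and ran HTSeq 0.6.1 without regard to strand. The deposited values are raw counts per RefSeq transcript, with tallies of reads not assigned. Symbols and coordinates came from RefSeq (26081 IDs) and GENCODE (113 IDs) on GRCm38, and 301 IDs stayed without a symbol. Samples were grouped by their labels.

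Each comparison was fitted on its own libraries with edgeR 4.0.16 in R 4.3.3, using filterByExpr (minimum count 10, minimum total 15), TMM, the quasi-likelihood test and Benjamini-Hochberg adjustment over all transcripts tested, at an FDR of 1%. The standard error is the absolute log2 fold change divided by the square root of F. The scripts were tested on simulated data. DESeq2 1.42.0, RLE normalization, other filters, 1 transcript per gene, all groups in one fit, a replicate block, an FDR of 5% and each library left out were tried. The sequencing depth was 29380403 to 58285057 counts per library, and precision covers counting error and the spread of 2 or 3 pools.

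The genes and lists were chosen with earlier results of these data known. Named were all 8 genes, *Dicer1* and, per list, up to 3 genes called in the same direction in all 3 comparisons with controls, by largest *Ago2* ADH change. For likeness, 3 genes with a mean of at least 100 counts were taken each for *Ago2* and *Ago3*, by r of log2(CPM + 0.5), of which 1 is not reported here. Lengths were those of GENCODE transcripts.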

Additional observations from a re-analysis of the deposited data

Results flagged for a closer look

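The tables end with a tally of alignments that were not unique, which no comparison above used, and it separated mutants from controls. Its share was taken of transcript counts, reads without a feature and this tally together. That share was at least 57.3% in *Ago2* ADH and 57.0% in *Ago2* null, against at most 34.6% in *Ago2* fl/fl. In *Dicer* KO it was at least 44.4%, against at most 31.5% in *Dicer* WT. Reads in this tally are not in the counts of any gene, so their part in the levels of the 8 genes was not tested. No group had the 4 libraries needed to look for single outlying values.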

How the results depend on the processing

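Of the log2 fold changes of the 8 genes under all alternatives, 551 kept their direction and their side of the threshold, 11 lost a call, 9 gained one and 21 changed sign, none of them for a gene called in the comparison. Of the counts of called genes, 69 stayed within 1.5 times. At an FDR of 5%, 5 genes were called in *Dicer* KO and 1 for the change in *Ago2* ADH less that in *Dicer* KO. Leaving out 1 library gave 2 to 4 called genes in *Ago2* ADH and 0 to 1 between *Ago2* ADH and *Ago2* null. From counts without division by length, and with coding length, the *Ago2* share of the Argonaute transcripts was 17.4% in fl/fl, 11.8% in ADH and 13.7% in *Dicer* WT.

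Log2 fold changes that changed sign belonged to uncalled genes. In *Ago2* ADH, *Ago1* was 0.0081 with at least 10 counts in every library and *Tnrc6c* was -0.0096 with all 5 groups in one fit. With each library left out, *Ago1* ran from -0.19 to 0.25 in *Ago2* ADH and from -0.81 to 0.28 in *Ago2* null. Between *Ago2* ADH and *Ago2* null it ran from -0.29 to 0.79, *Ago3* from -0.0061 to 0.029, *Ago4* from -0.039 to 0.33 and *Mov10* from -0.0032 to 0.22. For the change in *Ago2* ADH less that in *Dicer* KO, *Ago3* ran from -0.13 to 0.024, *Tnrc6a* from -0.097 to 0.11 and *Mov10* from -0.22 to 0.12. The cause was not tested.

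Replicate numbers did not pair the libraries: deviations of same-numbered libraries correlated at -0.14 to 0.06. With the number as a block, *Ago1* in *Ago2* ADH was 0.024, and 4 genes were called in *Ago2* ADH, 3 in *Ago2* null and 2 in *Dicer* KO, *Ago3* in *Ago2* null being the call that was lost (adjusted p = 0.0113, edgeR). Low counts of *Ago1* and *Ago4* set the widest intervals.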
